A study of Mus musculus with 12 samples.

Results

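The effect of lactate on the transcripts of mouse macrophages was measured as an average over both oxygen levels of the series. All 12 libraries of the series entered it: 6 from cells given 25 mM sodium lactate and 6 from cells given 25 mM NaCl, the salt control, so that both arms received a sodium salt at the same concentration. The cells were macrophages grown from bone marrow of C57BL/6 mice and taken on day 7 of primary culture, with no genetic change named in the labels. They were kept in normoxia or in hypoxia (1% oxygen), which gives 4 groups of 3 libraries. Each library is named by oxygen level, salt and number, as in hypoxia-lactate 3. Oxygen was a covariate, so each averaged fold change below compares lactate with NaCl at the same oxygen level and averages the result. Ranges and medians given for a whole arm pool both oxygen levels and are not adjusted for oxygen. The labels state neither how long the exposure lasted nor whether the libraries stem from different mice or dishes. The spread behind each p-value is thus that between the libraries, and it may be technical.

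Lactate is the end product of glycolysis and leaves and enters cells through monocarboxylate transporters together with a proton. Inside, lactate dehydrogenase turns it back into pyruvate, and some surface receptors respond to it or to the acid that comes with it. In macrophages of poorly perfused tissue, lactate is known for inducing genes of alternative activation and vascular growth, among them Arg1 and Vegfa, with a part ascribed to the hypoxia-inducible factor HIF. Cytosolic HSP70 chaperones bind unfolded proteins and are switched on by the heat shock factor HSF1. The factor NFAT5 acts in cells under hypertonic load, where it raises transporters and enzymes that build up small organic osmolytes and also an HSP70 gene.

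Between 22705978 and 49885085 reads per library were counted in genes. Library hypoxia-lactate 3 stood apart. At least 10 counts were found for 11437 genes in it and for 13198 to 14767 genes in the others. Mitochondrial transcripts made up 0.486% of its counts, and 2.04% to 4.75% of those in the others. The common coefficient of variation between libraries, after oxygen and treatment, was 38.7% with all 12 libraries and 24.2% without it. Results are therefore given with 12 libraries and with the 11 that leave it out. Of the genes named below, Hspa1a, Hspa1b, Hspa1l and Cd33 passed the main test, that of edgeR, with all 12. For any other gene the call in this test holds with 11 libraries only. Normoxia-NaCl 1 had the highest mitochondrial share. All 13 macrophage markers had counts in every library. The growth factor receptor Csf1r stood at 4392 CPM (counts per 1000000 counts, scaled by TMM) or more, and the lowest marker value was 2.73 CPM of the Fc receptor Fcgr1 in hypoxia-lactate 3.

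With all 12 libraries 4 of 14616 tested genes passed an adjusted p of 0.05, which is 0.0274%. The HSP70 family genes Hspa1a, Hspa1b and Hspa1l rose (0.0205%) and the inhibitory sialic acid receptor Cd33 fell (0.00684%), each by more than 2-fold. Without hypoxia-lactate 3, 80 of 15088 genes passed (0.53%), 50 of them higher (0.331%) and 30 lower (0.199%), and the 4 genes were among them. Besides these, the 50 held the betaine transporter Slc6a12 and the acetyl-CoA enzyme Acss2, and the 30 held the complement genes Cfp and C1qb, the mannose receptor Mrc1, the phagocytosis receptor Mertk and the mitotic kinase Cdk1. In bulk RNA of this kind, fewer cells of a type and less RNA per cell cannot be told apart. The adjusted p is that of edgeR's quasi-likelihood F test with Benjamini-Hochberg (BH) adjustment over all tested genes, and fold changes are log2 values with the standard error (SE) of that fit. At an unadjusted p under 0.05 there were 921 genes with 12 libraries and 1929 with 11. Of the 80 genes, 79 were also tested with 12 libraries, all 79 had the same sign there and 68 had an unadjusted p under 0.05. The 80 were chosen in 11 of these 12 libraries, so this agreement was nearly fixed in advance and nothing is read from it. Over all genes 3.13% were higher and 3.17% lower at that p with 12 libraries. Hypoxia-lactate 3 itself lay on the lactate side of the median of all 6 NaCl libraries for 58 of the 80. That median mixes both oxygen levels, so a difference between them can count as the lactate side. Ifitm6 counts so, at 10.6 CPM against a median of 8.83 CPM, though it lay below all hypoxia-NaCl libraries. Nothing is therefore read from this count. Among the 80, 23 were higher and 9 lower by at least 2-fold.

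**Figure D1:**
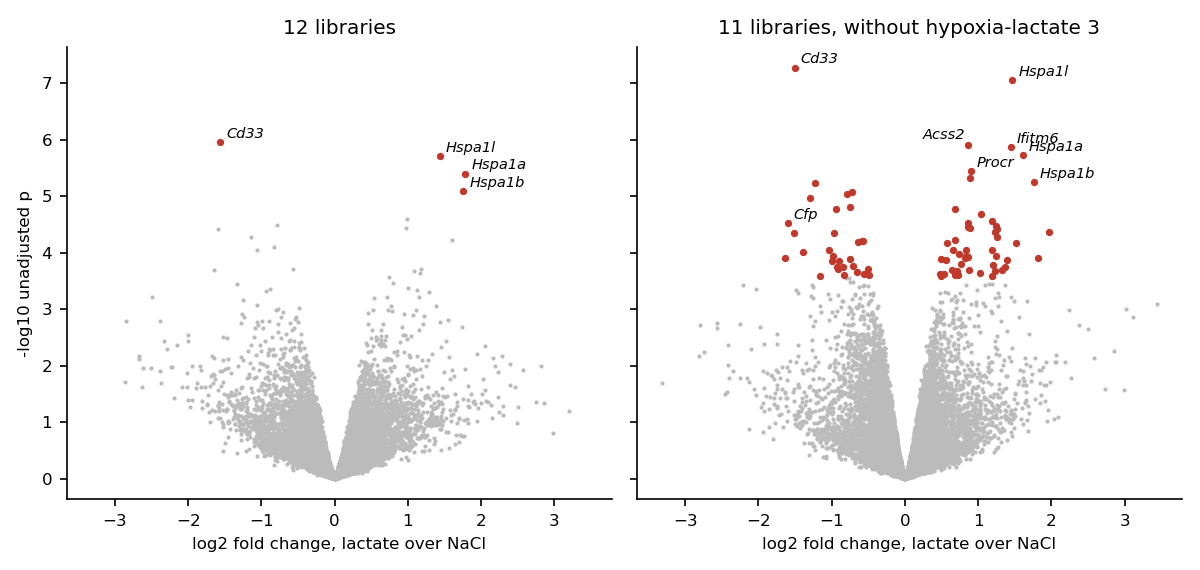
Log2 fold change of lactate over NaCl (horizontal axis) against −log10 of the unadjusted p (vertical axis) for each tested gene within ±3.5 log2 units, with 12 libraries on the left and 11 on the right. Red points pass an adjusted p of 0.05: 4 genes on the left and 79 of 80 on the right, where Hpca lies beyond the axis.

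The 3 HSP70 genes were the only rises past the threshold with 12 libraries. Hspa1a (ENSMUSG00000091971), an inducible cytosolic HSP70, stood at 19.1, 22.6 and 19.5 CPM in normoxia-NaCl and at 74.5, 109 and 60.04 CPM in normoxia-lactate. In hypoxia-NaCl it stood at 102, 98.1 and 55.7 CPM and in hypoxia-lactate at 186, 183 and 395 CPM. At each oxygen level every lactate library was above every NaCl library, and normoxia-lactate and hypoxia-NaCl libraries overlapped. The log2 fold change was 1.78 ± 0.24 with 12 libraries (edgeR BH-adjusted p = 0.0195) and 1.61 ± 0.21 with 11 (edgeR BH-adjusted p = 0.00579). Hspa1b (ENSMUSG00000090877), its near-identical neighbour, ranged over 11.7 to 79.9 CPM (median 26.7) in the 6 NaCl libraries and over 44.8 to 153 CPM (median 89.2) in 5 lactate libraries, with 187 CPM in hypoxia-lactate 3. Its log2 fold change was 1.75 ± 0.25 with 12 libraries (edgeR BH-adjusted p = 0.0301) and 1.76 ± 0.25 with 11 (edgeR BH-adjusted p = 0.01). Reads without a unique alignment (8.34% to 18.4% per library) were counted apart from genes. Reads that fit both copies could thus be missing from both, so the level of each alone is uncertain.

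Hspa1l (ENSMUSG00000007033), a related HSP70 known mainly from the testis, had the smallest SE of the 3. It stood at 4.20, 3.05 and 3.81 CPM in normoxia-NaCl, 9.93, 13.7 and 10.4 CPM in normoxia-lactate, 13.1, 11.2 and 9.68 CPM in hypoxia-NaCl and 28.6, 25.99 and 26.6 CPM in hypoxia-lactate. Hypoxia-lactate 3, the last of these, lay with its group. Lactate over NaCl was, in log2, 1.43 ± 0.18 with 12 libraries (edgeR BH-adjusted p = 0.0144) and 1.47 ± 0.15 with 11 (edgeR BH-adjusted p = 0.000664).

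The stretches before the start sites of these genes are shown because the 3 genes lie side by side and moved together. They are the 250 bases before each start, from RefSeq with build GRCm38.p6, while the counts were made on mm9, and the Hspa1a and Hspa1l starts are 547 bases apart on opposite strands. Capitals mark a heat shock element of 2 inverted units, searched on both strands as GAANNTTC or TTCNNGAA.
Hspa1a, chr17:34972157-34972406, minus strand: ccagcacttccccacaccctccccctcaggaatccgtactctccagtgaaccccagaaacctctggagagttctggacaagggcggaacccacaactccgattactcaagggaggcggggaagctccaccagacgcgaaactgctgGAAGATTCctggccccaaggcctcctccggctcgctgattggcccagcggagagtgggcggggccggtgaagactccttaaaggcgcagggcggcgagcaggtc
Hspa1b, chr17:34959239-34959488, minus strand: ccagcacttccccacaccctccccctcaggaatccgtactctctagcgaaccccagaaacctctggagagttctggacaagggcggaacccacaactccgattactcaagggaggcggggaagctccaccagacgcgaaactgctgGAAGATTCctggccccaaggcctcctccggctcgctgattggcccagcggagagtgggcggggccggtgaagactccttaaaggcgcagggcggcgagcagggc
Hspa1l, chr17:34972453-34972702, plus strand: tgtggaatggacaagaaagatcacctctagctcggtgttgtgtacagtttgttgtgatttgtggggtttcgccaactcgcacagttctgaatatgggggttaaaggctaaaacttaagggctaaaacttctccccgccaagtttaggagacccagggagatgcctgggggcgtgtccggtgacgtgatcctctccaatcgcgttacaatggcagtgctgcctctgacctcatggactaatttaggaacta
The Hspa1a and Hspa1b stretches were identical at 247 of 250 positions, and both held the element GAAGATTC from 104 to 97 bases before the start. The Hspa1l stretch held none. Such an element occurred in the 300-base window of 16.97% of 27025 RefSeq genes, so its presence in a promoter is common. It was in 7 of the 41 risen genes with a promoter in the table (17.07%) and in 4 of the 22 fallen ones (18.18%). A longer element of 3 units, GAANNTTCNNGAA or TTCNNGAANNTTC, was in 0.6623% of all promoters and in 0 of the risen and 0 of the fallen genes.

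Few other chaperone genes passed. Of 21 tested genes of cytosolic chaperones and HSF1 targets 3 rose and 0 fell without hypoxia-lactate 3, where 0.331% of all genes were called higher. The list's median was 0.06, beside 0.01 over all genes. With 12 libraries 2 rose and the median was 0.01. Besides Hspa1a and Hspa1b this was Hspa4l (ENSMUSG00000025757), an HSP110 family chaperone, at 43.2 to 74.5 CPM (median 55.5) with NaCl and 61.6 to 131 CPM (median 79.1) in 5 lactate libraries. On the log2 scale the change was 0.65 ± 0.12 (edgeR BH-adjusted p = 0.0364) and 0.74 ± 0.15 with 12 libraries (edgeR BH-adjusted p = 0.222), and the call was kept in 3 of 11 fits that left out a further library. The constitutive Hspa8 had a log2 fold change of -0.46 ± 0.18 and the co-chaperone Dnajb1 -0.28 ± 0.13, with edgeR BH-adjusted p = 0.297 and 0.394. None of 20 genes of endoplasmic reticulum folding passed in edgeR, DESeq2 or limma-voom, and 0 had an unadjusted p under 0.05.

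Cd33 (ENSMUSG00000004609), a Siglec that binds sialic acids on the same or neighbouring cells and carries inhibitory signals, was the gene with the lowest p. It stood at 16.6, 21.4 and 18.6 CPM in normoxia-NaCl and at 7.76, 5.39 and 6.89 CPM in normoxia-lactate. In hypoxia-NaCl it stood at 11.05, 9.37 and 11.4 CPM and in hypoxia-lactate at 3.99, 3.30 and 2.91 CPM. All 6 lactate libraries lay below all 6 NaCl libraries, hypoxia-lactate 3 included. Between the arms the log2 fold change was -1.57 ± 0.19 with 12 libraries (edgeR BH-adjusted p = 0.0144) and -1.51 ± 0.15 with 11 (edgeR BH-adjusted p = 0.000664), and it was -1.49 ± 0.20 in normoxia and -1.53 ± 0.23 in hypoxia. It was the 1 gene of 19 tested chemokine receptors and Siglecs that passed.

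Each of the 4 calls with 12 libraries was lost without some single libraries. Without hypoxia-NaCl 3, normoxia-NaCl 2, normoxia-NaCl 3 or normoxia-lactate 1 in turn, none of the 4 passed in edgeR, with BH-adjusted p of 0.0545 to 0.0733 for Cd33 and Hspa1l, 0.0624 to 0.108 for Hspa1a and 0.0683 to 0.149 for Hspa1b. Without normoxia-NaCl 1, Hspa1a and Hspa1b had edgeR BH-adjusted p = 0.144 and 0.161. Hspa1b also missed the threshold without normoxia-lactate 3 (0.066) and hypoxia-lactate 1 (0.0531). In the 12 fits that each left out a library, the log2 fold changes stayed between -1.63 and -1.51 for Cd33, 1.35 and 1.51 for Hspa1l, 1.61 and 1.90 for Hspa1a and 1.53 and 1.88 for Hspa1b. DESeq2, limma-voom, RLE and upper-quartile scaling and both other filters called all 4. With oxygen left out of the model, edgeR called 0 genes, with BH-adjusted p of 0.529 for Cd33 and 0.855 for the others (796 genes at an unadjusted p under 0.05).

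Without hypoxia-lactate 3, 8 of the 80 genes passed in each of the 16 alternatives run on 11 libraries, which include leaving out each further library. They were Hspa1a, Hspa1b, Hspa1l, Cd33, Ifitm6, Procr, Sez6l2 and Acss2, of which Procr, Sez6l2 and Acss2 were chosen after their values were seen. Acss2 (ENSMUSG00000027605), a cytosolic and nuclear enzyme that makes acetyl-CoA from acetate, stood at 16.99, 19.5 and 18.1 CPM in normoxia-NaCl and 27.8, 34.1 and 33.4 CPM in normoxia-lactate, and at 15.4, 16.1 and 12.4 CPM in hypoxia-NaCl and 26.4, 29.4 and 40.6 CPM in hypoxia-lactate. All 6 lactate libraries were above all 6 NaCl libraries. This was a log2 fold change of 0.87 ± 0.11 with 11 libraries (edgeR BH-adjusted p = 0.00519) and 0.97 ± 0.16 with 12 (edgeR BH-adjusted p = 0.0704). Procr (ENSMUSG00000027611), the endothelial protein C receptor, which binds an anticoagulant protease, ranged over 57.3 to 90.96 CPM (median 72.3) with NaCl and 119 to 153 CPM (median 139.8) in 5 lactate libraries. The log2 change came to 0.90 ± 0.12 (edgeR BH-adjusted p = 0.00906) and 0.99 ± 0.16 with 12 libraries (edgeR BH-adjusted p = 0.0704), with 205 CPM in hypoxia-lactate 3.

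Ifitm6 (ENSMUSG00000059108), of the interferon-induced transmembrane family, stood at 3.79, 5.21 and 3.66 CPM in normoxia-NaCl and 14.3, 13.2 and 16.2 CPM in normoxia-lactate. In hypoxia it stood at 17.04, 19.9 and 12.4 CPM with NaCl and 31.3, 35.1 and 10.6 CPM with lactate, so hypoxia-lactate 3 lay below the hypoxia-NaCl libraries while the 2 others lay above them. The resulting log2 fold change was 1.44 ± 0.18 with 11 libraries (edgeR BH-adjusted p = 0.00519) and 1.21 ± 0.31 with 12, where it missed the threshold (edgeR BH-adjusted p = 0.424). Sez6l2 (ENSMUSG00000030683), a membrane protein with complement-binding type repeats, ranged over 5.94 to 15.01 CPM (median 11.02) with NaCl and 12.3 to 26.3 CPM (median 16.3) in 5 lactate libraries. Its 117 CPM in hypoxia-lactate 3 was far above the rest, and the log2 fold change was 0.89 ± 0.12 with 11 libraries (edgeR BH-adjusted p = 0.01) and 1.44 ± 0.37 with 12 (edgeR BH-adjusted p = 0.424).

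Of 224 tested genes whose symbol starts with Slc, for solute carrier, 4 rose and 1 fell without hypoxia-lactate 3, and 0 passed with 12 libraries. Those that rose are 1.79% of them, beside 0.331% of all genes, and the family was chosen after its values were seen. They were Slc6a12, Slc6a4, Slc7a11 and Slc39a4, and Slc7a8 fell. Slc6a12 (ENSMUSG00000030109), the betaine and GABA transporter, stood at 179, 170.2 and 129 CPM in normoxia-NaCl and 407, 562 and 339 CPM in normoxia-lactate. In hypoxia it stood at 508, 633 and 155 CPM with NaCl and 943, 1209.9 and 706 CPM with lactate. Each oxygen level showed no overlap of the arms, while hypoxia-NaCl 3 lay far below the other hypoxia-NaCl libraries. The log2 fold change was 1.40 ± 0.27 with 11 libraries (edgeR BH-adjusted p = 0.0401) and 1.30 ± 0.28 with 12 (edgeR BH-adjusted p = 0.288). Its call was kept when hypoxia-NaCl 2 or hypoxia-NaCl 3 was also left out and lost with any of the 9 others, with edgeR BH-adjusted p up to 0.133. Fxyd2 (ENSMUSG00000059412), the gamma subunit of the sodium-potassium pump, ranged over 60.4 to 361 CPM (median 141) with NaCl and 206 to 630.3 CPM (median 488) in 5 lactate libraries, with 1021 CPM in hypoxia-lactate 3. Its log2 fold change was 1.51 ± 0.27 (edgeR BH-adjusted p = 0.0305) and 1.60 ± 0.28 with 12 libraries (edgeR BH-adjusted p = 0.0862), with the call kept in 5 of 11 fits that left out a further library.

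Slc6a12 and Hspa1b belong to a list of genes of the osmotic response and NFAT5 targets. Of its 14 tested genes 3 rose and 0 fell without hypoxia-lactate 3, namely Hspa1b, Hspa4l and Slc6a12, and 11 were positive, with a median of 0.40. With 12 libraries 1 rose, 14 were positive and the median was 0.21, beside -0.002 over all genes. Of all genes, 51.98% were positive with 11 libraries and 49.81% with 12. With 11 libraries 0.331% of all genes were called higher and their median was 0.01. The lists were drawn up with earlier results of these data known, so their counts are a description, and list members named with an adjusted p above the threshold were chosen after their values were seen. The inositol transporter Slc5a3 (ENSMUSG00000089774) had a log2 fold change of 1.06 ± 0.25 (edgeR BH-adjusted p = 0.0857) and the kinase Sgk1 0.47 ± 0.12 (0.109). Nfat5 itself had a log2 fold change of 0.20 ± 0.14 and the aldose reductase Akr1b3 0.38 ± 0.25, with edgeR BH-adjusted p = 0.575 and 0.543. The taurine transporter Slc6a6 had a log2 fold change of -0.05 ± 0.12 (0.904).

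The 250 bases before the Slc6a12 start are shown with those of Cd33 because these were the 2 genes named by the rule whose window held a tonicity-responsive element, the site known for NFAT5. Capitals mark that element, searched by its consensus on both strands, from RefSeq with build GRCm38.p6.
Slc6a12, chr6:121342324-121342573, plus strand: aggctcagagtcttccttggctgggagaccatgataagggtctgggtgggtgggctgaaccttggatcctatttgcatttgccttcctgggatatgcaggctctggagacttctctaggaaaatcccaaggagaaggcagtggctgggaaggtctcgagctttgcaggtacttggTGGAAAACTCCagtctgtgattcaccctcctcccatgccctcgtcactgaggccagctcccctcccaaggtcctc
Cd33, chr7:43533172-43533421, minus strand: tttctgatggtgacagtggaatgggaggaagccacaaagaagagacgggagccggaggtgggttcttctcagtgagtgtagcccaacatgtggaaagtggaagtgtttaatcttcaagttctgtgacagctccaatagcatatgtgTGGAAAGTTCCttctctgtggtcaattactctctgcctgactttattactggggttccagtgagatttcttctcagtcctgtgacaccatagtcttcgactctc
The element lies 75 to 65 bases before the Slc6a12 start shown. For Slc6a12 only a start whose window held the element was printed. A gene with more than 1 start was counted where any of its windows matched. In Cd33 it lies 104 to 94 bases before the start and overlaps a heat shock element of 2 units at 102 to 95 bases. The tonicity-responsive element was found in 5.743% of all RefSeq promoters, in 4 of the 41 risen genes (9.756%) and in 1 of the 22 fallen ones (4.545%). These are matches of letters and no measurement of binding.

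Slc7a11 (ENSMUSG00000027737), the cystine-glutamate exchanger that feeds glutathione synthesis, stood at 31.3, 35.7 and 31.6 CPM in normoxia-NaCl and 50.9, 59.2 and 61.1 CPM in normoxia-lactate. In hypoxia it stood at 34.00, 33.9 and 19.9 CPM with NaCl and 56.4 and 90.9 CPM in hypoxia-lactate 1 and 2. All 5 of these lactate libraries lay above all 6 NaCl libraries, whereas hypoxia-lactate 3, at 9.73 CPM, lay below all of them. Lactate over NaCl was, in log2, 1.04 ± 0.17 with 11 libraries (edgeR BH-adjusted p = 0.0197, call kept in 9 of 11 further omissions) and 0.82 ± 0.36 with 12 (edgeR BH-adjusted p = 0.767). It was the 1 of 22 NRF2 antioxidant genes and of 32 ATF4 response genes that rose, and 0 fell in either list. The medians were 0.07 and 0.02, and 0.13 and 0.02 with 12 libraries, where 0 rose. Slc6a4 (ENSMUSG00000020838), the serotonin transporter, ranged over 6.65 to 19.5 CPM (median 10.8) with NaCl and 16.4 to 61.5 CPM (median 22.3) in 5 lactate libraries, a log2 fold change of 1.32 ± 0.27 (edgeR BH-adjusted p = 0.0483, 0.0525 with RLE scaling) and 1.12 ± 0.38 with 12 libraries (edgeR BH-adjusted p = 0.679). Its call was kept only without normoxia-NaCl 1 or hypoxia-NaCl 3 among the 11 further omissions.

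**Figure D2:**
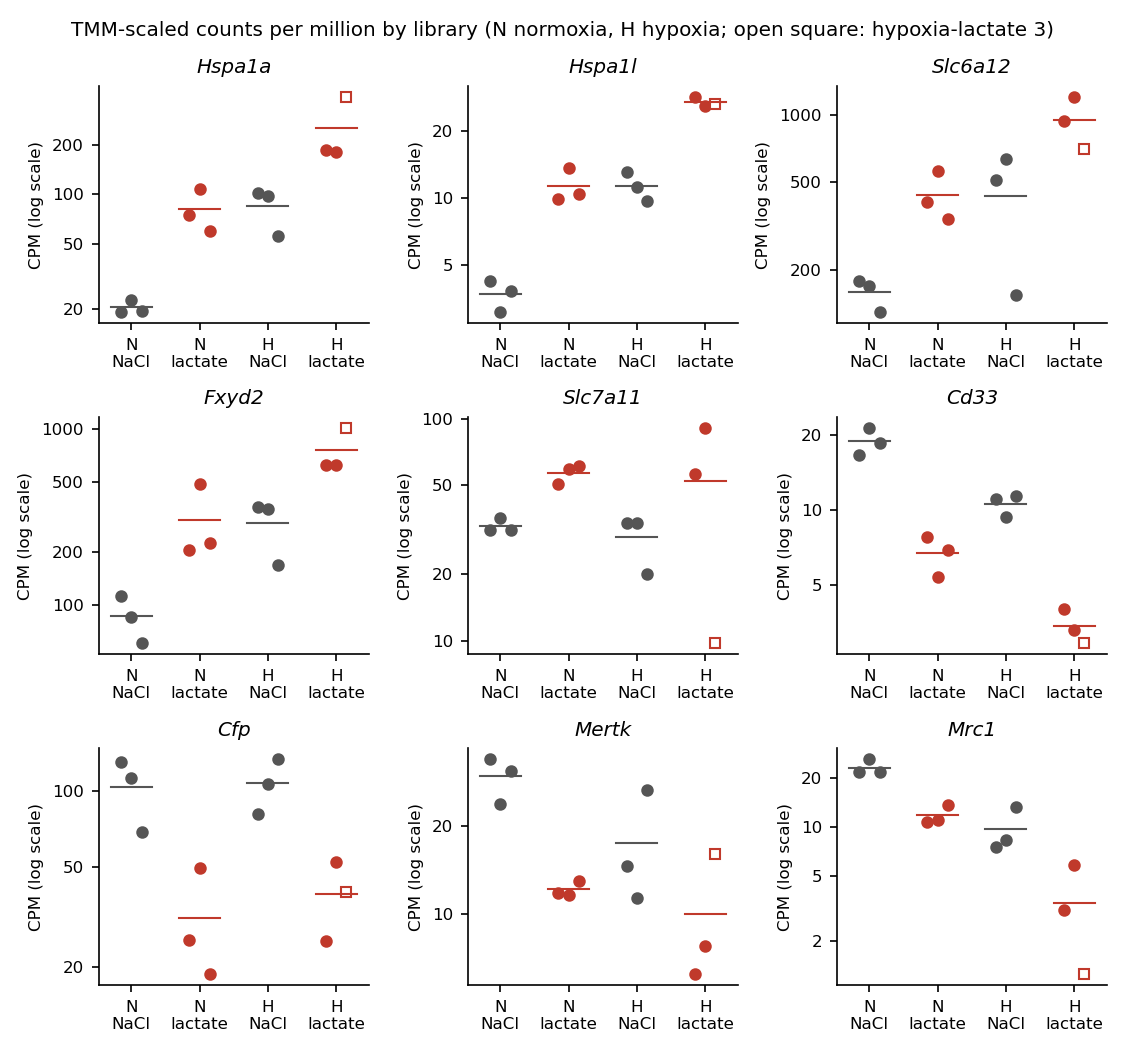
TMM-scaled CPM (vertical axis, log scale) of 9 genes in each of the 12 libraries (horizontal axis, by group). Points are libraries, lines are group means, and the open square is hypoxia-lactate 3. That library follows its group for Hspa1l and Cd33. It lies at 395 CPM for Hspa1a, above 186 and 183 CPM in its group, and at 9.73 CPM, below all others, for Slc7a11.

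Of 18 tested genes whose symbol starts with Serpin, a family of protease inhibitors, 4 rose and 0 fell without hypoxia-lactate 3, and 0 passed with 12 libraries. The median was 0.39, the 4 are 22.2% beside 0.331% of all genes, and the family was chosen after its values were seen. Serpinb9b (ENSMUSG00000021403), of the intracellular serpins that inhibit granzyme-like proteases, ranged over 12.2 to 21.2 CPM (median 16.97) with NaCl and 18.3 to 57.9 CPM (median 39.8) in 5 lactate libraries. On the log2 scale the change was 1.25 ± 0.21 (edgeR BH-adjusted p = 0.0254) and 1.17 ± 0.24 with 12 libraries (edgeR BH-adjusted p = 0.198), and 1 normoxia-lactate library, at 18.3 CPM, overlapped the NaCl libraries. The granzyme B inhibitor Serpinb9 (fold change 1.24 ± 0.21), Serpinb1b (1.36 ± 0.27) and Serpini1 (1.19 ± 0.20) also passed, with edgeR BH-adjusted p = 0.0251, 0.0465 and 0.0236, and were chosen after their values were seen. Serpinb1b and Serpini1 were of low level, at most 4.58 and 7.09 CPM in 5 lactate libraries. The related Serpinb9 and Serpinb9b share sequence, so reads that fit both could be missing from their counts. Calls of Serpinb9 and Serpinb9b were kept in 4 and 5 of 11 further omissions, and those of Serpinb1b and Serpini1 in 1 and 5. With 12 libraries Serpinb9 had a log2 fold change of 1.18 ± 0.23, Serpinb1b 1.11 ± 0.57 and Serpini1 0.95 ± 0.35 (edgeR BH-adjusted p = 0.197, 0.767 and 0.699).

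The transcription factor gene Tal2 (ENSMUSG00000028417), known from the brain and leukaemia, had the largest rise among called genes with a mean of at least 5 CPM. It stood at 2.79, 3.87 and 2.85 CPM in normoxia-NaCl, 14.9, 13.2 and 11.2 CPM in normoxia-lactate, 18.3, 21.04 and 2.93 CPM in hypoxia-NaCl and 37.04, 46.1 and 6.35 CPM in hypoxia-lactate. Library 3 of each hypoxia group lay far below the other 2. Between the arms the log2 fold change was 1.82 ± 0.35 with 11 libraries (edgeR BH-adjusted p = 0.0401) and 1.56 ± 0.49 with 12 libraries (edgeR BH-adjusted p = 0.64), and the call was kept in 2 of 11 further omissions, those of hypoxia-NaCl 2 and 3. Ndrg2 (ENSMUSG00000004558), a member of the NDRG family of stress-regulated genes, had a log2 fold change of 1.26 ± 0.22 (edgeR BH-adjusted p = 0.0282) and 1.11 ± 0.27 with 12 libraries (edgeR BH-adjusted p = 0.394), with 13.3 to 50.1 CPM (median 20.5) under NaCl and 29.6 to 102 CPM (median 55.8) in 5 lactate libraries. Its call was kept in 5 of 11.

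Inflammatory and immediate early genes held 1 call each. Of 25 pro-inflammatory genes 1 rose and 0 fell without hypoxia-lactate 3, with 16 positive and a median of 0.24. With 12 libraries 0 rose and the median was 0.17. The risen gene, Nfkbiz (ENSMUSG00000035356), encodes an atypical inhibitor of NF-κB that also activates secondary response genes. It ranged over 11.4 to 37.6 CPM (median 22.8) with NaCl and 27.4 to 64.4 CPM (median 31.9) in 5 lactate libraries, with 18.03 CPM in hypoxia-lactate 3, and its log2 fold change was 0.86 ± 0.14 (edgeR BH-adjusted p = 0.0236, kept in 7 of 11 further omissions) and 0.66 ± 0.27 with 12 libraries (edgeR BH-adjusted p = 0.767). Il1b, the cytokine interleukin-1β, had a log2 fold change of 1.15 ± 0.25 without hypoxia-lactate 3 (edgeR BH-adjusted p = 0.0617). Its medians were 1.31 CPM with NaCl and 3.12 CPM with lactate, the latter with hypoxia-lactate 3 included. Of 27 immediate early genes 1 rose and 0 fell (median 0.25, 20 positive), and 0 rose with 12 libraries (median 0.33, 21 positive). The risen gene was Dusp4 (ENSMUSG00000031530), a nuclear phosphatase of MAP kinases, with a log2 fold change of 0.89 ± 0.15 (edgeR BH-adjusted p = 0.0251, kept in 6 of 11) and 1.08 ± 0.22 with 12 libraries (edgeR BH-adjusted p = 0.197). It ranged over 27.04 to 49.2 CPM (median 35.2) with NaCl and 44.97 to 80.4 CPM (median 78.2) in 5 lactate libraries.

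Of 31 genes of matrix remodelling and vascular factors 1 rose and 0 fell without hypoxia-lactate 3, with a median of 0.09, and 0 rose with 12 libraries (median 0.13). Mmp19 (ENSMUSG00000025355), a matrix metalloproteinase, ranged over 56.6 to 84.1 CPM (median 65.97) with NaCl and 86.1 to 130.1 CPM (median 107) in 5 lactate libraries, with no overlap, while hypoxia-lactate 3 at 67.9 CPM lay within the NaCl range. This was a log2 fold change of 0.69 ± 0.11 (edgeR BH-adjusted p = 0.017, kept in 8 of 11 further omissions) and 0.57 ± 0.16 with 12 libraries (edgeR BH-adjusted p = 0.535). Ctsk (ENSMUSG00000028111), a collagen-degrading cysteine protease listed with the lysosome and with osteoclast markers, had a log2 fold change of 0.71 ± 0.15 (edgeR BH-adjusted p = 0.0494, 0.053 with RLE scaling) and 0.95 ± 0.23 with 12 libraries (edgeR BH-adjusted p = 0.403), and 549.6 CPM in hypoxia-lactate 3 against 84.2 to 279 CPM (median 134) in the other lactate libraries. Its call was kept in 2 of 11 further omissions, those of normoxia-NaCl 3 and normoxia-lactate 2. It was the 1 of 10 tested osteoclast markers that passed. The matrix glycoprotein Spp1, osteopontin, had a log2 fold change of 1.67 ± 0.39 without hypoxia-lactate 3 (edgeR BH-adjusted p = 0.0828). Its medians were 917 CPM with NaCl and 2674 CPM with lactate, the latter with hypoxia-lactate 3 included.

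Several genes that mark tissue macrophages or serve the uptake of dying cells fell. Of 29 genes of macrophage identity 4 fell and 0 rose without hypoxia-lactate 3, with 19 negative and a median of -0.28. They were Cd33, Mertk, Maf and C1qb, and DESeq2 called 10 lower. With 12 libraries the count was 1 and the median -0.03. Over all genes with 11 libraries 0.199% were called lower, 48.0% were negative and the median was 0.01. Among 13 macrophage markers, Mertk and C1qb fell. The F4/80 gene Adgre1 had a log2 fold change of -0.51 ± 0.11 (edgeR BH-adjusted p = 0.0622) and the lysosomal marker Cd68 -0.33 ± 0.15, while the endotoxin receptor Cd14 had a log2 fold change of 0.50 ± 0.16 and the lysozyme gene Lyz2 0.32 ± 0.15, none of them past the threshold. Csf1r, Itgam, Fcgr1 and Spi1 lay, in log2, between -0.05 and 0.09 and did not pass either.

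Mertk (ENSMUSG00000014361), a receptor tyrosine kinase that recognises dying cells through Gas6 and protein S, stood at 33.99, 23.8 and 30.9 CPM in normoxia-NaCl and 11.8, 11.6 and 12.98 CPM in normoxia-lactate. In hypoxia it stood at 14.5, 11.3 and 26.6 CPM with NaCl and 6.19, 7.76 and 16.02 CPM with lactate. The arms were apart at each oxygen level without hypoxia-lactate 3, which lay among the hypoxia-NaCl libraries. The resulting log2 fold change was -1.29 ± 0.20 with 11 libraries (edgeR BH-adjusted p = 0.0139, kept in 9 of 11 further omissions) and -1.05 ± 0.27 with 12 (edgeR BH-adjusted p = 0.424). Maf (ENSMUSG00000055435), a transcription factor of resident macrophages, ranged over 53.9 to 103 CPM (median 68.2) with NaCl and 31.6 to 44.7 CPM (median 33.4) in 5 lactate libraries, with no overlap, and stood at 52.7 CPM in hypoxia-lactate 3. The log2 change came to -0.97 ± 0.17 (edgeR BH-adjusted p = 0.0255, kept in 6 of 11) and -0.88 ± 0.19 with 12 libraries (edgeR BH-adjusted p = 0.288).

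Of 13 complement genes 2 fell and 0 rose without hypoxia-lactate 3, where 0.199% of all genes were called lower. Cfp (ENSMUSG00000001128), properdin, which stabilises the convertase of the alternative pathway, stood at 129.8, 112 and 68.8 CPM in normoxia-NaCl and 25.6, 49.7 and 18.8 CPM in normoxia-lactate. In hypoxia it stood at 80.9, 106 and 134 CPM with NaCl and 25.4, 52.3 and 39.7 CPM with lactate. All 6 lactate libraries lay below all 6 NaCl libraries. Its log2 fold change was -1.60 ± 0.27 with 11 libraries (edgeR BH-adjusted p = 0.0236, kept in 8 of 11 further omissions) and -1.59 ± 0.27 with 12 (edgeR BH-adjusted p = 0.0704). C1qb (ENSMUSG00000036905), a chain of C1q that starts the classical pathway, ranged over 215 to 605 CPM (median 434) with NaCl and 104 to 279.8 CPM (median 259) in 5 lactate libraries, with 428 CPM in hypoxia-lactate 3. On the log2 scale the change was -1.16 ± 0.24 (edgeR BH-adjusted p = 0.0494, 0.053 with RLE scaling, kept in 3 of 11) and -0.78 ± 0.32 with 12 libraries (edgeR BH-adjusted p = 0.767). The other chains had, with 11 libraries, a log2 fold change of -1.46 ± 0.33 for C1qa and -1.06 ± 0.24 for C1qc, both with edgeR BH-adjusted p = 0.074. With 12 libraries these were -0.73 and -0.67 (edgeR BH-adjusted p = 0.785 and 0.767). Hypoxia-lactate 3 held 73.9 CPM of C1qa, where the highest library had 75.5 CPM. The list's median was -0.00, and -0.08 with 12 libraries, where 0 fell.

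Alternative activation, a programme lactate is known to induce, had 2 fallen and 0 risen genes of 25 without hypoxia-lactate 3, and a median of -0.20. With 12 libraries 0 fell and the median was -0.22. Over all genes with 11 libraries 0.199% were called lower and the median was 0.01. Mrc1 (ENSMUSG00000026712), the mannose receptor CD206, stood at 21.8, 26.5 and 21.9 CPM in normoxia-NaCl, 10.8, 11.1 and 13.7 CPM in normoxia-lactate, 7.62, 8.35 and 13.4 CPM in hypoxia-NaCl and 3.09, 5.89 and 1.25 CPM in hypoxia-lactate. The arms were apart at each oxygen level, with hypoxia-lactate 3 lowest of all. This was a log2 fold change of -1.03 ± 0.19 (edgeR BH-adjusted p = 0.0364) and -1.24 ± 0.31 with 12 libraries (edgeR BH-adjusted p = 0.418), and the call with 11 was kept when normoxia-NaCl 1 or hypoxia-NaCl 3 was also left out and lost with the 9 others, at up to 0.0995. Tgm2 (ENSMUSG00000037820), a transglutaminase that crosslinks proteins, ranged over 82.2 to 197 CPM (median 126) with NaCl and 51.4 to 101.2 CPM (median 77.1) in 5 lactate libraries. The log2 change came to -0.80 ± 0.12 (edgeR BH-adjusted p = 0.0124, kept in 10 of 11), and -0.78 ± 0.13 with 12 libraries (edgeR BH-adjusted p = 0.0704). Arg1, arginase 1, was at or near 0, with at most 1.16 CPM in hypoxia-lactate 2, so no fold change is given.

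Most interferon-stimulated genes had negative fold changes. Of 31 tested, 1 fell and 0 rose without hypoxia-lactate 3, 26 were negative and the median was -0.26, against 25 and -0.26 with 12 libraries, where 0 fell. Over all genes 48.0% were negative with 11 libraries and 50.2% with 12. Lgals9 (ENSMUSG00000001123), the lectin galectin-9, ranged over 22.9 to 55.1 CPM (median 32.7) with NaCl and 9.46 to 32.7 CPM (median 22.7) in 5 lactate libraries, a log2 fold change of -0.94 ± 0.15 (edgeR BH-adjusted p = 0.017, kept in 7 of 11 further omissions) and -1.06 ± 0.19 with 12 libraries (edgeR BH-adjusted p = 0.111). Irf7, a factor that amplifies interferon responses, had a log2 fold change of -0.93 ± 0.23 and Gbp2, a guanylate-binding protein, -1.16 ± 0.28 (edgeR BH-adjusted p = 0.0999 and 0.0901). Of 16 genes of MHC class II presentation none passed in edgeR or limma-voom, DESeq2 called 1 higher, 2 were higher and 1 lower at an unadjusted p under 0.05, and the median was -0.25 (-0.17 with 12 libraries).

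Further falls by the rule concerned signalling. Il12rb2 (ENSMUSG00000018341), a chain of the interleukin-12 receptor, ranged over 3.01 to 14.5 CPM (median 6.33) with NaCl and 1.69 to 3.53 CPM (median 2.41) in 5 lactate libraries. Its log2 fold change was -1.51 ± 0.26 (edgeR BH-adjusted p = 0.0255, kept in 5 of 11 further omissions) and -1.65 ± 0.33 with 12 libraries (edgeR BH-adjusted p = 0.197). Rab3il1 (ENSMUSG00000024663), an exchange factor for Rab GTPases of vesicle traffic, stood at 68.3, 49.2 and 60.3 CPM in normoxia-NaCl, 29.9, 30.5 and 32.4 CPM in normoxia-lactate, 29.5, 25.2 and 45.2 CPM in hypoxia-NaCl and 10.8, 10.7 and 18.2 CPM in hypoxia-lactate. The arms were apart at each oxygen level, with a log2 fold change of -1.23 ± 0.18 (edgeR BH-adjusted p = 0.01, kept in 9 of 11) and -1.14 ± 0.20 with 12 libraries (edgeR BH-adjusted p = 0.0862).

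Nearly all genes of cell division had negative fold changes. Of 34 genes of cell cycle and DNA replication 33 had a negative fold change without hypoxia-lactate 3, with a median of -0.50, and 17 were lower at an unadjusted p under 0.05. Over all genes 48.0% were negative and 6.83% were lower at that p. The adjusted test was passed by 1 in edgeR, 6 in DESeq2 and 0 in limma-voom. With 12 libraries the median was -0.54 with 30 negative, 12 of them lower at an unadjusted p under 0.05 (3.17% over all genes), and 0 passed in edgeR and limma-voom and 1 in DESeq2. The called gene, Cdk1 (ENSMUSG00000019942), the kinase that drives mitosis, stood at 34.3, 53.1 and 26.5 CPM in normoxia-NaCl, 20.4, 23.03 and 17.4 CPM in normoxia-lactate, 27.1, 33.2 and 23.02 CPM in hypoxia-NaCl and 16.8, 15.9 and 9.55 CPM in hypoxia-lactate. On the log2 scale the change was -0.84 ± 0.17 (edgeR BH-adjusted p = 0.0471, limma-voom 0.0644) and -0.94 ± 0.21 with 12 libraries (edgeR BH-adjusted p = 0.288), and the call with 11 was kept without normoxia-NaCl 1, normoxia-NaCl 3 or hypoxia-NaCl 3 and lost with the 8 other omissions. Summed over the list, NaCl libraries held 858 to 1933 CPM and 5 lactate libraries 824 to 1238, so the arms overlapped.

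Outside that list, Pimreg (ENSMUSG00000020808), a mitotic regulator, had a log2 fold change of -0.999 ± 0.19 (edgeR BH-adjusted p = 0.0401) and Stmn1 (ENSMUSG00000028832), which destabilises microtubules, -0.98 ± 0.19 (edgeR BH-adjusted p = 0.0401). With 12 libraries Pimreg had a log2 fold change of -1.25 ± 0.40 (edgeR BH-adjusted p = 0.653). Calls of these were kept in 3 and 2 of 11 further omissions. Hypoxia-lactate 3 went apart in both directions: it held 0.712 CPM of Pimreg, the lowest of all, and 179.9 CPM of Stmn1, the highest, against 25.9 to 50.02 CPM (median 34.2) in the other lactate libraries. With 12 libraries the log2 fold change of Stmn1 was -0.24 ± 0.45 (edgeR BH-adjusted p = 0.931). The mitotic genes Prc1, Kif23, Nusap1, Cdca3 and Iqgap3 also fell, between log2 -0.72 ± 0.14 for Kif23 and -0.92 ± 0.18 for Iqgap3, and were chosen after their values were seen. Calls of Kif23, Cdca3 and Iqgap3 were kept in 1 of 11 further omissions, that of Nusap1 in 2 and that of Prc1 in 4. Limma-voom lost Kif23, Nusap1 and Cdca3 (BH-adjusted p = 0.0503, 0.0568 and 0.0555), and edgeR with RLE scaling lost Cdca3 (BH-adjusted p = 0.0549). Kif23 stood at 171 CPM in hypoxia-lactate 3 against 23.02 to 32.4 CPM (median 28.2) in the other lactate libraries, and its log2 fold change with 12 libraries was -0.01 ± 0.45.

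The genes that lactate is best known for were measured by name. Vegfa (ENSMUSG00000023951), the vascular growth factor, stood at 37.9, 54.2 and 56.4 CPM in normoxia-NaCl, 72.5, 93.2 and 52.5 CPM in normoxia-lactate, 181, 201 and 221 CPM in hypoxia-NaCl and 252, 265 and 687 CPM in hypoxia-lactate. Hypoxia-lactate 3 had more than 2-fold the level of any other library. The log2 fold change was 0.47 ± 0.15 with 11 libraries (edgeR BH-adjusted p = 0.193) and 0.78 ± 0.25 with 12 (edgeR BH-adjusted p = 0.653), and neither passed. Hif1a (ENSMUSG00000021109), the oxygen-regulated HIF subunit, had a log2 fold change of 0.42 ± 0.11 (edgeR BH-adjusted p = 0.114) and 0.33 ± 0.15 with 12 libraries (edgeR BH-adjusted p = 0.767). Of 28 other HIF targets 0 passed in edgeR with 11 libraries, 1 in limma-voom and 2 in DESeq2, 8 were higher at an unadjusted p under 0.05 (5.95% over all genes) and the median was 0.12. With 12 libraries 20 of 27 were positive and the median was 0.26. Nos2, the inducible nitric oxide synthase, was near 0, with medians of 0.385 CPM with NaCl and 0.208 CPM with lactate without hypoxia-lactate 3. Its highest value was 6.16 CPM, in hypoxia-lactate 1. The log2 fold change, which rests on few counts, was 1.61 ± 0.63 with 11 libraries (edgeR BH-adjusted p = 0.305) and 1.30 ± 0.74 with 12 libraries (edgeR BH-adjusted p = 0.767).

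No gene of lactate handling passed in edgeR. Of 14 genes of lactate transport, interconversion and sensing none passed in edgeR or limma-voom, DESeq2 called 1 lower, 1 was higher and 2 lower at an unadjusted p under 0.05, and the median was -0.02 (-0.08 with 12 libraries). The importer Slc16a1 (ENSMUSG00000032902) had a log2 fold change of 0.10 ± 0.11 and the exporter Slc16a3 (ENSMUSG00000025161) 0.35 ± 0.16 (edgeR BH-adjusted p = 0.758 and 0.38). With 12 libraries Slc16a1 had a log2 fold change of -0.10 ± 0.25. It ranged over 13.4 to 16.1 CPM (median 14.8) with NaCl and 13.7 to 17.9 CPM (median 16.2) in 5 lactate libraries. Ldha (ENSMUSG00000063229), the dehydrogenase subunit that favours lactate formation, had a log2 fold change of -0.01 ± 0.15 and Ldhb (ENSMUSG00000030246), which favours the way back, -0.67 ± 0.21 (edgeR BH-adjusted p = 0.99 and 0.201). Ldhb was lower in every lactate library than in every NaCl library of the same oxygen level, at 6.30, 7.16 and 7.02 CPM in normoxia-NaCl, 4.02, 4.62 and 5.44 in normoxia-lactate, 2.94, 3.20 and 4.18 in hypoxia-NaCl and 1.27, 2.51 and 1.48 in hypoxia-lactate. The lactate-sensing receptor Gpr132 (ENSMUSG00000021298) had a log2 fold change of -0.04 ± 0.13 (edgeR BH-adjusted p = 0.93). With 12 libraries Ldha had a log2 fold change of 0.18 ± 0.20 and Gpr132 0.19 ± 0.21, so the signs of these and of Slc16a1 turned with hypoxia-lactate 3. The hydroxycarboxylic acid receptor Hcar2 was at most 2.29 CPM and gives no fold change.

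The glucose transporter Slc2a1 (ENSMUSG00000028645) had a log2 fold change of 0.23 ± 0.14 (edgeR BH-adjusted p = 0.489) and 0.37 ± 0.17 with 12 libraries (edgeR BH-adjusted p = 0.767). Of 23 genes of glycolysis and glucose uptake none passed in edgeR or limma-voom with 11 libraries, DESeq2 called 1 higher, 1 was higher and 1 lower at an unadjusted p under 0.05, and 14 were positive with a median of 0.02. With 12 libraries 19 of 23 were positive and the median was 0.19, so the list's shift moved with hypoxia-lactate 3. Atp6v0d2 (ENSMUSG00000028238), a subunit of the lysosomal proton pump, ranged over 67.7 to 278 CPM (median 190.4) with NaCl and 47.5 to 268 CPM (median 122) in 5 lactate libraries. This was a log2 fold change of -0.56 ± 0.42 (edgeR BH-adjusted p = 0.613) and -0.58 ± 0.41 with 12 libraries (edgeR BH-adjusted p = 0.791), and the arms overlapped. Nuclear-encoded genes of oxidative phosphorylation had 29 of 34 negative and a median of -0.20, with 0 passing in edgeR, DESeq2 and limma-voom and 5 lower at an unadjusted p under 0.05. With 12 libraries 22 were negative and the median was -0.09.

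**Figure D3:**
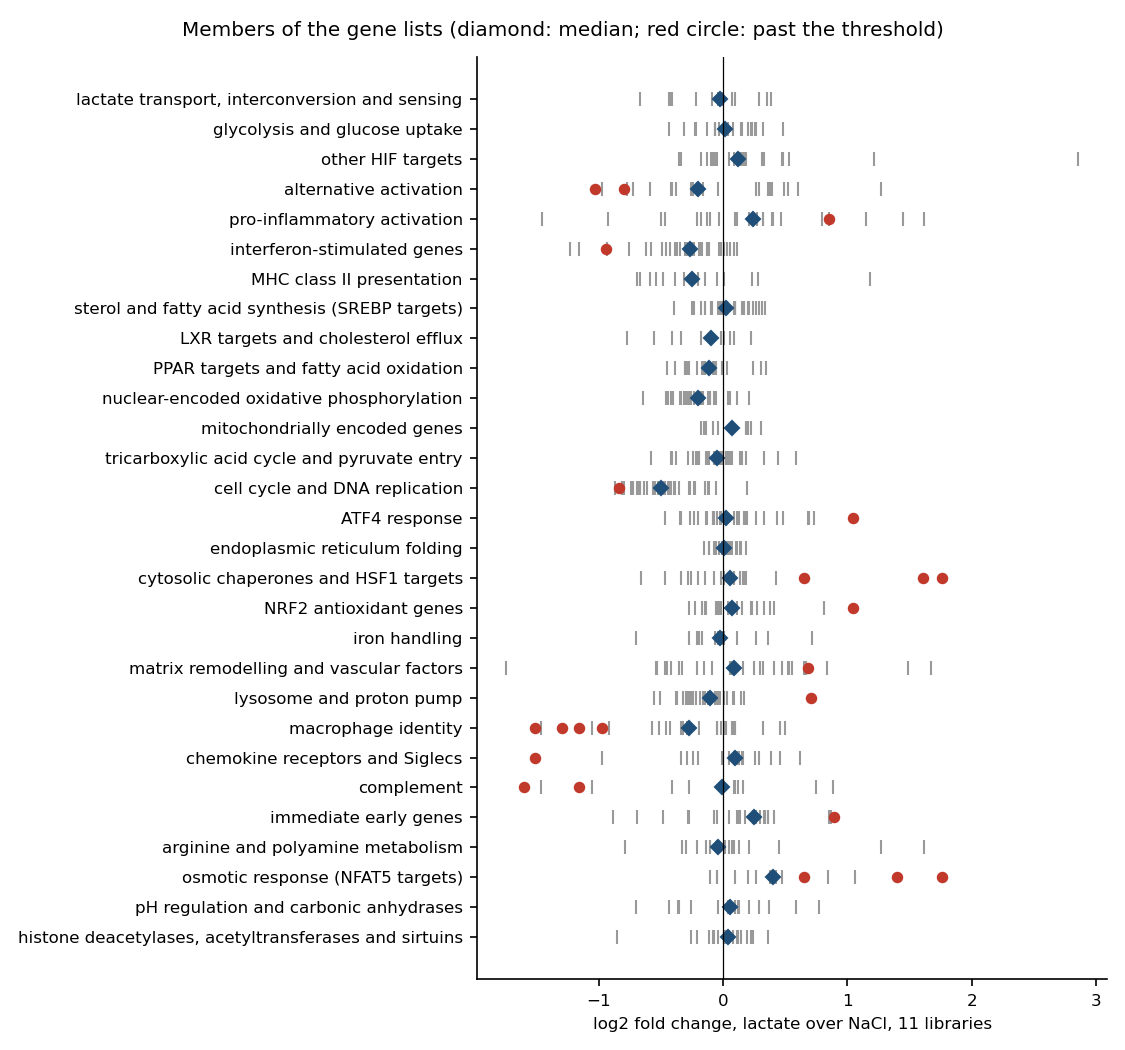
Log2 fold change of lactate over NaCl with 11 libraries (horizontal axis) for the tested genes of 29 lists (vertical axis). Grey ticks are genes, red circles genes past an adjusted p of 0.05 and diamonds list medians, which run from -0.50 for cell cycle and DNA replication to 0.40 for the osmotic response.

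Markers of other cells that the cultures could hold are given beside these results. With 11 libraries 0 of 14 tested neutrophil markers passed in edgeR, DESeq2 and limma-voom (1 at an unadjusted p under 0.05), and their sum ranged over 153 to 251 CPM with NaCl and 149 to 279 CPM in 5 lactate libraries. Fibroblast and stromal markers summed to 77.9 to 278 and 97.1 to 228 CPM, and dendritic cell markers to 127 to 148 and 122 to 138 CPM. Lymphocyte markers summed to 23.2 to 61.6 and 21.1 to 38.1 CPM, with 3 of 17 at 0 in every library. Mast cell and basophil markers summed to 2.61 to 6.41 and 4.88 to 9.59 CPM, with 6 of 12 at 0 in every library. Erythroid and megakaryocyte markers summed to 17.03 to 75.2 and 13.4 to 75.9 CPM and osteoclast markers to 356 to 627 and 403 to 636 CPM. The arms overlapped in every one of these sums, and the part of other cells in the results was not tested.

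The average was set beside the effect at each oxygen level. With 11 libraries all 80 genes had the same sign in normoxia and in hypoxia. This and the separations that follow are not independent of the calls, since the 80 were selected in these same libraries for a difference shared by both levels, so nothing is read from the contrast with all genes. The 2 arms did not overlap at either oxygen level for 76 of the 80, beside 627 of all 15088 genes (4.16%), and for 22 all 5 lactate libraries lay beyond all 6 NaCl libraries, beside 144 of all genes (0.954%). Tested within 1 oxygen level in the same 11 libraries, 5 genes passed in normoxia (0.0331%), namely Cd33, Hspa1a, Hspa1b, Hspa1l and Ifitm6. In hypoxia 6 passed (0.0398%), namely Cd33, Rab3il1, Procr, Layn, Mcrip1 and the predicted gene Gm14111, of which the last 4 were chosen after their values were seen. With 12 libraries 0 genes passed in either level in edgeR, with 227 in normoxia and 1664 in hypoxia at an unadjusted p under 0.05. In the same 12 libraries limma-voom called 0 in either level and DESeq2 10 in normoxia and 112 in hypoxia.

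The difference of the lactate effect between oxygen levels passed for 0 genes in edgeR, with 12 libraries (497 at an unadjusted p under 0.05, 1 called by DESeq2 and 0 by limma-voom) and with 11 (609). Among the 80 genes, 6 had an unadjusted p under 0.05 for it. The estimated log2 fold change was smaller in hypoxia for Hspa1a (1.99 ± 0.24 in normoxia, 1.12 ± 0.26 in hypoxia), Hspa1b (2.21 ± 0.30 and 1.20 ± 0.31) and Ifitm6 (1.79 ± 0.21 and 1.02 ± 0.22). It was larger in size in hypoxia for Layn (ENSMUSG00000060594), a hyaluronan receptor (0.43 ± 0.17 and 1.40 ± 0.19), for Rab3il1 (-0.93 ± 0.20 and -1.63 ± 0.24) and for Mcrip1 (-0.54 ± 0.12 and -0.97 ± 0.14). None of the 6 differences held after adjustment (edgeR BH-adjusted p = 0.998).

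**Figure D4:**
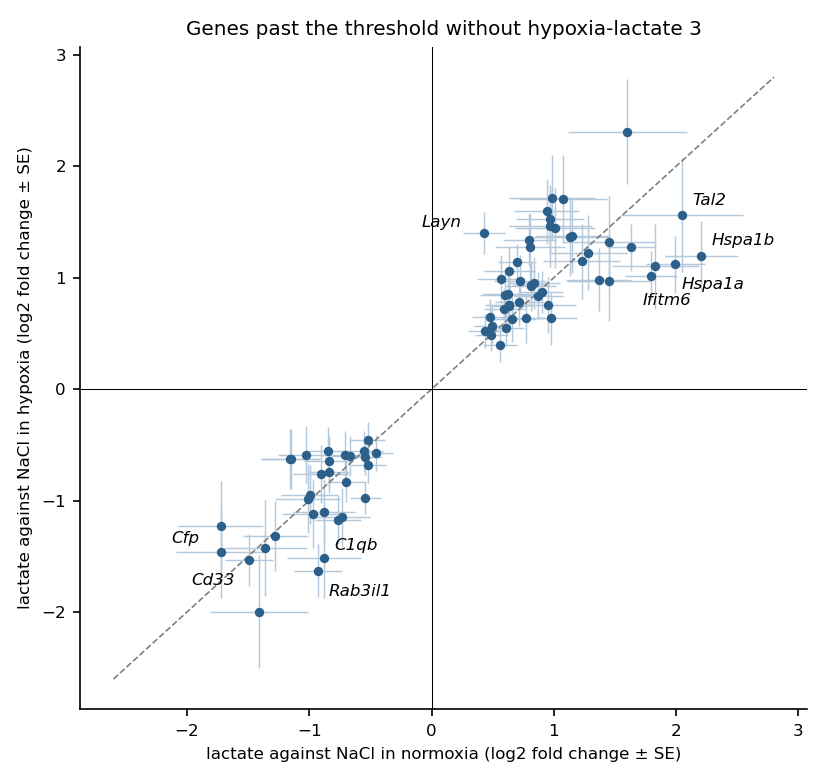
Log2 fold change of lactate over NaCl in normoxia (horizontal axis) and in hypoxia (vertical axis), both ± SE, for the genes past an adjusted p of 0.05 with 11 libraries and a mean of at least 1 CPM. All points lie in the quadrants of equal sign, and the dashed line marks equal effects.

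Normoxia and hypoxia libraries were also fitted apart, so that neither fit used a library of the other. Of 14616 genes, 776 had an unadjusted p under 0.05 in normoxia, and 84.54% of these had the same sign in the 5 hypoxia libraries, against 60.06% of all genes. In both fits 278 genes had an unadjusted p under 0.05, and 268 of these had the same sign (34.54% of those in normoxia and 14.15% of those in hypoxia). Of all genes, 9.80% had such a p in hypoxia with the sign of normoxia. With hypoxia-lactate 3 kept, 85 genes had such a p in both fits, 82 with the same sign. These 82 are 10.57% of the normoxia genes, beside 2.50% of all genes, and 72.04% of the normoxia genes kept their sign against 50.94% of all. After adjustment 0 genes passed in the normoxia fit and 3 in the hypoxia fit without hypoxia-lactate 3 (mt-Tm, Gm10364 and Gm14111, none of them among the 80), and 0 in that fit with it (514 at an unadjusted p under 0.05). In the separate fits Hspa1l had a log2 fold change of 1.62 ± 0.24 in normoxia and 1.27 ± 0.17 in hypoxia, and Cd33 had a log2 fold change of -1.50 ± 0.21 and -1.54 ± 0.23, with the smallest edgeR BH-adjusted p of the 4 values at 0.0804.

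The remaining called genes were chosen after their values were seen. Among the rises were Folr1 (ENSMUSG00000001827), a folate receptor, with a log2 fold change of 1.19 ± 0.22 and its paralogue Folr2 (ENSMUSG00000032725) with 0.58 ± 0.10. The zinc importer Slc39a4 (ENSMUSG00000063354) had a log2 fold change of 1.21 ± 0.24, with 9.58 to 22.02 CPM (median 15.4) under NaCl and 22.8 to 51.4 CPM (median 36.8) in 5 lactate libraries, which did not overlap. Of receptors, Il1r1 (ENSMUSG00000026072), the signalling receptor of interleukin-1, had a log2 fold change of 1.23 ± 0.25, the chemerin receptor Cmklr1 (ENSMUSG00000042190) 0.69 ± 0.14 and the VEGF receptor Flt1 (ENSMUSG00000029648) 0.83 ± 0.16. The transcription factor genes Ets2 (ENSMUSG00000022895), Rbpj (ENSMUSG00000039191), the DNA-binding partner of Notch, and Bcl6 (ENSMUSG00000022508), a repressor, had a log2 fold change of 1.19 ± 0.25, 0.86 ± 0.16 and 0.49 ± 0.10. The peroxidase gene Prdx5 (ENSMUSG00000024953) had a log2 fold change of 0.56 ± 0.11 and the nuclear RNA Malat1 (ENSMUSG00000092341) 0.83 ± 0.16. Each had an edgeR BH-adjusted p between 0.0305 and 0.0494, close to the threshold. In 11 fits that left out a further library, calls of Il1r1 and Cmklr1 were kept in 0, those of Slc39a4, Flt1, Ets2, Bcl6 and Prdx5 in 1, that of Folr1 in 2 and those of Folr2, Rbpj and Malat1 in 3. With RLE scaling edgeR lost Il1r1 (BH-adjusted p = 0.0518), Cmklr1 (0.0562), Ets2 (0.0562) and Bcl6 (0.0573), and limma-voom lost Cmklr1 (0.0546) and Folr1 (0.0508). With 12 libraries the smallest edgeR BH-adjusted p of these genes was 0.263, for Malat1.

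Among the remaining falls, Sulf2 (ENSMUSG00000006800), which removes sulfate from heparan sulfate at the cell surface, had a log2 fold change of -0.75 ± 0.12 (edgeR BH-adjusted p = 0.017) and -0.41 ± 0.26 with 12 libraries (edgeR BH-adjusted p = 0.779). It stood at 145, 103 and 112 CPM in normoxia-NaCl, 70.9, 78.4 and 71.9 CPM in normoxia-lactate, 87.9, 85.6 and 119 CPM in hypoxia-NaCl and 53.4, 55.9 and 159.7 CPM in hypoxia-lactate. Without hypoxia-lactate 3 the 2 arms did not overlap. The neutral amino acid transporter Slc7a8 (ENSMUSG00000022180) had a log2 fold change of -0.56 ± 0.11, the Ras GTPase activator Rasa3 (ENSMUSG00000031453) -0.51 ± 0.10 and the ubiquitin ligase Wwp1 (ENSMUSG00000041058) -0.65 ± 0.13 (edgeR BH-adjusted p = 0.0494, 0.0483 and 0.0494). Slc7a8 and Rasa3 did not overlap between 5 lactate and 6 NaCl libraries. Calls of Slc7a8 and Rasa3 were kept in 2 of 11 further omissions and that of Wwp1 in 0, and RLE scaling lost Slc7a8 (edgeR BH-adjusted p = 0.0534). With 12 libraries they had a log2 fold change of -0.50 ± 0.13, -0.12 ± 0.27 and -0.78 ± 0.19 (edgeR BH-adjusted p = 0.424, 0.946 and 0.394).

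Of the 80 genes, DESeq2 on the same 11 libraries called 79 and limma-voom 66. An edgeR fit with a mean per group, averaged over both oxygen levels, called 46 genes in these libraries (26 higher, 20 lower). With all 12 libraries DESeq2 called 44 of the 80, and limma-voom with quality weights per library called 76. Most calls were lost in some fit that left out a further library. When hypoxia-lactate 2 was left out too, 10 of the 80 passed, and 12 passed without hypoxia-lactate 1, which leaves 1 library in that group, assumed to vary like the others. Without normoxia-lactate 1, 2 or 3 in turn 23, 30 and 14 of the 80 passed. Without normoxia-NaCl 1, 2 or 3 it was 60, 44 and 27, and without hypoxia-NaCl 1, 2 or 3 it was 21, 32 and 53. The 80 include Hpca, a neuronal calcium sensor that was at 0 in all 6 NaCl libraries and at most 1.58 CPM with lactate, for which no fold change is given.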

How the data were processed

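RNA was measured by poly(A)-selected sequencing in 12 libraries of bone marrow-derived macrophages, 3 in each of 4 groups. The authors deposited raw read counts per Ensembl gene. Per the submitters' processing notes, BWA and HTSeq were used with build mm9. Versions, strand setting and annotation release are not stated. Counts were used as deposited, without the 5 counter rows, of which reads outside genes took 13.7% to 22.0%. Of 37620 identifiers 32897 matched a symbol.

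The main test was edgeR 4.0.16 (R 4.3.3), with TMM scaling, filterByExpr on the 4 groups, treatment plus oxygen, the quasi-likelihood F test and Benjamini-Hochberg adjustment at 0.05. The SE is the log2 fold change divided by the root of F. Effects at each oxygen level and their difference came from a fit with a mean per group. It was repeated without hypoxia-lactate 3 and tested on simulated data. Alternatives were RLE and upper-quartile scaling, other filters, DESeq2 1.42.0, limma 3.58.1 voom, a replicate block and leaving out libraries. Those run on 11 libraries were chosen after seeing the data.

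Named genes were the 10 largest rises and falls with a mean of at least 5 CPM and a regular symbol, of each of 36 lists at most 3 risen and 3 fallen members, and 13 genes of lactate biology. Members and lists were chosen with earlier results of these data known. No 2 libraries agreed within sampling noise. Between 22705978 and 49885085 gene counts a library limit precision for genes of few CPM. Motifs were searched in RefSeq promoters of 250 bases before and 50 after the start.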

Additional observations from a re-analysis of the deposited data

Results flagged for a closer look

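Within the lactate or the NaCl arm, a library was marked where its gap to the nearest other exceeded Dixon's 95% limit, which chance does in about 1 of 20 arms, and 7 marks were made over 50 arms. Among the lactate libraries, hypoxia-lactate 3 had the fewest genes with at least 10 counts (11437), the lowest mitochondrial share (0.486%) and the lowest median rank correlation with the other libraries (0.8996). Among the NaCl libraries, normoxia-NaCl 1 had the highest mitochondrial share (4.748%), the highest share of counts in its top 100 genes (33.66%) and the lowest such correlation (0.9456). The microtubule gene Stmn1 stood at 179.9 CPM in hypoxia-lactate 3, far above the other lactate libraries.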

How the results depend on the processing

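With 12 libraries, against 4 calls in the main test, there were 9 with upper-quartile scaling (5 higher, 4 lower), 7 with no filter, 7 with a minimum mean of 5 CPM, 78 with DESeq2 (42 higher, 36 lower), 184 with voom quality weights (91 and 93) and 0 with oxygen left out. Leaving out each library gave 0 to 80 calls, with 80 only without hypoxia-lactate 3, and leaving out normoxia-NaCl 1 as well gave 80. A replicate block gave 9 calls (6 higher, 3 lower), the 4 genes among them, and 290 (128 higher, 162 lower) without hypoxia-lactate 3. In the fit with a mean per group, the average gave 5 calls and 0 with the block (1058 genes at an unadjusted p under 0.05). Without hypoxia-lactate 3 the average of that fit gave 46 calls (26 higher, 20 lower), against 80 in the main model. In deviations from group means, same-numbered libraries correlated by 0.025, 0.206 and 0.239 in normoxia and 0.082, 0.257 and 0.0999 in hypoxia. Differently numbered ones correlated by -0.301 to 0.0976 in normoxia and by -0.150 to 0.0426 in hypoxia. Without hypoxia-lactate 3 the common coefficient of variation was 20.1% with the block and 24.2% without it. The main test did not use the numbers, and whether they pair libraries was not tested. With 11 libraries, against 80 calls, there were 192 with no filter (99 higher, 93 lower) and 393 with DESeq2 (175 higher, 218 lower), and leaving out a further library gave 10 to 80. The difference between oxygen levels gave 1 call with DESeq2 against 0. Normoxia gave 5 and hypoxia 6 calls without hypoxia-lactate 3, against 0 and 0.

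Genes near no change turned in sign, none of them called. With 12 libraries Slc16a1 had 0.009309 with quality weights, 0.05173 without both libraries, 0.1038 with the block and hypoxia-lactate 3 left out, and -0.1941 to 0.09665 without 1 library each. Ldha had -0.02459 with that block and -0.007867 to 0.3107 without 1 library each. Gpr132 had -0.02388, -0.04798 and -0.01913 in the order of Slc16a1, and -0.03764 to 0.2979 without 1 library each. With 11 libraries Ldha had 0.005156 with the 5 CPM minimum and -0.092 to 0.1052 with a further library left out, and Gpr132 -0.1199 to 0.05642. The cause was not tested. Depth limits what can be said of genes of few CPM, such as Arg1.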
